A study of Rattus norvegicus with 12 samples.

Results

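The 10 genes described here encode receptors and granule proteins of natural killer cells and cytotoxic T cells, and were chosen by name: Klrb1b, Klrd1, Klrk1, Ncr1, Nkg7, Prf1, Gzma, Gzmb, Gzmk and Ctsw. Every non-control probe named for one of them was taken, also through an older symbol or accession, which gave 12 probes of the 41012 different probes on the array. Klrb1b, Klrd1, Klrk1, Ncr1, Nkg7, Prf1, Gzma, Gzmk and Ctsw had 1 probe each and Gzmb had 3.

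The study measured whole blood and heart of male Sprague-Dawley (CD) rats given the antiarrhythmic drug amiodarone by mouth at 300 mg/kg per day for 10 days, or the vehicle, 1% methylcellulose. The animals were 10 weeks old at the start, and the samples are labelled as 11 weeks. There were 4 groups, blood after amiodarone, blood after vehicle, heart after amiodarone and heart after vehicle, each of 3 pools of rats with 1 single-colour array per pool. How many rats made up a pool is not stated by the labels, no genetic modification is named, and p-values measure the spread between pools. Blood RNA came from PAXgene tubes and heart RNA from an RNeasy kit, and the tissues lay on different slides, so tissue, kit and slide cannot be told apart.

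Natural killer cells kill infected or transformed cells without prior priming, and cytotoxic T cells do so after recognising antigen. Both carry lectin-like and immunoglobulin-like receptors that set an activation threshold, and both store perforin and granzymes in secretory granules that are released onto the target. Perforin opens a path through the target membrane, and granzymes, which are serine proteases, then cleave proteins inside it. Whole blood RNA also holds the RNA of red cells, platelets, neutrophils, monocytes and other lymphocytes, so a level in these pools is a level per total RNA. Fewer killer cells and less RNA per killer cell cannot be told apart in such pools.

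The probes were 60 bases long, and their positions are given by the files on the rn4 build. Klrb1b, Klrd1 and Klrk1 lie on chromosome 4, where many of the rat's lectin-like killer receptors are clustered, and the Klrd1 and Klrk1 probes were 36.3 kb apart. Gzma and Gzmk lie on chromosome 2 with probes 99.2 kb apart. Ncr1, Nkg7 and Ctsw lie on chromosome 1, Prf1 on chromosome 20 and Gzmb on chromosome 15. The Gzmb probe proper lay at chr15:35195458-35195517 on the minus strand. The 4 probes below are printed because the first 2 belong to the receptor that differed most in blood and to perforin, the granule gene that opens the target cell, and the last 2, both assigned to Gzmb through old accessions that the array calls granzyme-like proteins, did not behave alike. All are in lower case, with no base marked.
Klrb1b probe, chr4:165699496-165699555, minus strand: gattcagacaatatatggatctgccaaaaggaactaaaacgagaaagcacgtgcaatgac
Prf1 probe, chr20:28663319-28663378, plus strand: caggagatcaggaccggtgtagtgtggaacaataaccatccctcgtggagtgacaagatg
granzyme-like protein I probe, within chr15:35062817-35063001, minus strand: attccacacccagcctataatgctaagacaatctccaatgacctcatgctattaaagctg
granzyme-like protein III probe, chr15:34900680-34900739, minus strand: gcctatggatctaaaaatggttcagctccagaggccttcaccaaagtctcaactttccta

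RefSeq promoters on the GRCr8 build, 250 bases before to 50 bases after the gene's start, were at hand for 7 of the 10 genes, namely Gzma, Gzmb, Gzmk, Klrb1b, Klrk1, Nkg7 and Prf1. They were searched on both strands for 5 short motifs of factors known to act in killer cells or at start sites. The Runx core, TGTGGT, was found in 6 of the 7 promoters, all but that of Klrb1b, and in 17.3% of all 33469 promoters of the same length. The Ets core, AGGAAG, was in 4 of the 7, those of Gzmb, Klrb1b, Nkg7 and Prf1, and in 34.5% of all promoters. The core of the cAMP response element, TGACGT, was in the promoters of Gzmb and Prf1 and in 7.94% of all. The TATA box, TATAAA, was in those of Gzmb and Gzmk and in 14.2% of all. The T-box element, GGTGTGA, was in that of Gzmk and in 3.83% of all. No matches shared a base with each other. The promoters of Prf1, Gzmk and Gzmb are printed because these granule genes differed in how much they changed in blood, with the matches in capitals.
Prf1, chr20:29788790-29789089, plus strand: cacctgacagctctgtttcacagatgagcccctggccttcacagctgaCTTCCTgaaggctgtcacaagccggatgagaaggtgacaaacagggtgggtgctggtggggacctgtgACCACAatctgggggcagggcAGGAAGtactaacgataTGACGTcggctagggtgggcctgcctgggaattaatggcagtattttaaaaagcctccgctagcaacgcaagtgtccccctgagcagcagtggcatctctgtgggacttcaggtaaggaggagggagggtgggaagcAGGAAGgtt
Gzmk, chr2:46581966-46582265, minus strand: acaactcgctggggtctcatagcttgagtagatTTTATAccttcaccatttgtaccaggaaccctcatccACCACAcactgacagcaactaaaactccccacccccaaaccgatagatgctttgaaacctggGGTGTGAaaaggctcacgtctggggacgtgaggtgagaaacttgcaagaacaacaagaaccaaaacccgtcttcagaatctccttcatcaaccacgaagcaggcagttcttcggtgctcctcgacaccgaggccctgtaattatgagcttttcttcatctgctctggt
Gzmb, chr15:34462420-34462719, minus strand: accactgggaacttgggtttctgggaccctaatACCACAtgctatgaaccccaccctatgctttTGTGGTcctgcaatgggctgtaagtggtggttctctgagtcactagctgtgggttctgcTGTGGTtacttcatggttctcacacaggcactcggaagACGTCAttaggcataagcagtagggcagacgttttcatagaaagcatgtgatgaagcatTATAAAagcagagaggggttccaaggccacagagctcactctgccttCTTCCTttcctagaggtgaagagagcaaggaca
In Prf1 the Runx match began 134 bases before the start and the cAMP element match 96 bases before it. In Gzmb a TATA match began 30 bases before the start, and 3 Runx matches began 217, 186 and 127 bases before it. A match is a string of letters, not a measured binding site.

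Levels are given as scaled signals, the scanner's processed signal of a probe divided by the 75th percentile of its array, and differences on the log2 scale. A value belongs to its probe, so levels of different genes are not set against each other. The arrays differed in brightness by group in blood. The 75th percentile was 56.8 to 87.5 in blood after amiodarone and 20.9 to 26.2 in blood after vehicle, and 20625 to 21245 spots of 43379 were well above background after amiodarone against 14459 to 15548 after vehicle. In heart, 21233 to 25032 spots were well above background over both groups. The tissue labels matched their defining markers, with Myh6, Tnnt2 and Actn2 well above background on all heart arrays, and with Myh6 and Actn2 on no blood array and Tnnt2 on 1. In blood 67.3% of the 15857 features tested differed between amiodarone and vehicle at an adjusted p below 0.05, 40.2% of them all being higher and 27% lower, so a call in blood is common.

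In blood, 7 of the 10 genes were higher after amiodarone than after vehicle, none was lower, and the median difference of the 10 was 1.02 on the log2 scale against 0.44 over all features tested. The 7 were Klrb1b, Klrd1, Ncr1, Nkg7, Prf1, Gzma and Gzmk. That is 7 of 10 where 40.2% of all features were called higher. Klrb1b, Klrk1 and Ncr1 passed the filter only through the amiodarone pools, so they could hardly be called lower. Among features well above background on every blood array, 6 of 7 members were higher, as were 4331 of 10748 features. The pools of the groups did not overlap for 9 of the 10 genes, all with amiodarone above vehicle, where 44.9% of all features were separated that way. The summed signal of the 10 genes was 0.0612% ± 0.00338 of all signal on the arrays after amiodarone and 0.0163% ± 0.00223 after vehicle (SD, n = 3 each). Relative to the 75th percentile the rise was smaller, from 72.8 to 89.6 after vehicle to 170 to 195 after amiodarone. Both sums rest mostly on the brightest probes, those of Prf1, Gzma, Nkg7 and Gzmk. The share of a typical feature was not computed.

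**Figure D1:**
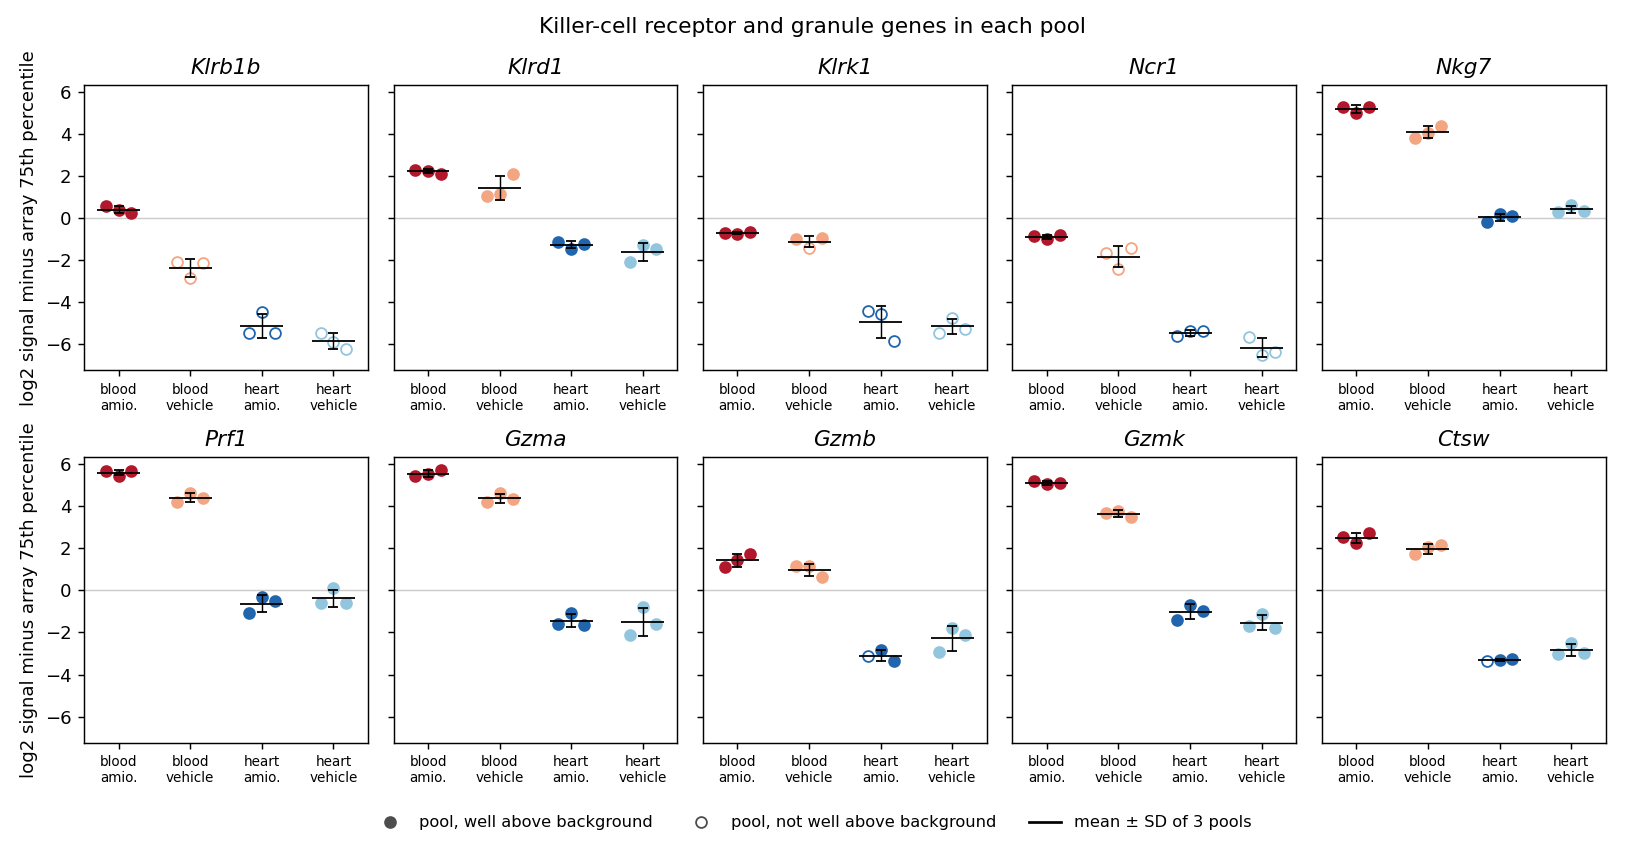
Each panel is 1 gene, with the log2 signal minus the array's 75th percentile of each pool on the y axis and the 4 groups on the x axis; bars are the mean ± SD of 3 pools and open points were not well above background. As plotted, with points below background included, blood lies above heart in every panel, and the amiodarone pools lie above the vehicle pools in blood for all genes but Gzmb.

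Among the receptors, Klrb1b, a lectin-like receptor of rat natural killer cells, showed the largest difference. Its scaled signals were 1.51, 1.31 and 1.20 in blood after amiodarone and 0.233, 0.139 and 0.232 in blood after vehicle. The vehicle pools were all below the well-above-background mark, while all 3 amiodarone pools were above it. The measured difference was 2.77 (SE 0.25, adjusted p = 0.000933), with the amiodarone mean at least 3.40-fold higher than the limit that the vehicle arrays allowed. Here and below, such a limit is the dimmest signal that counted as well above background on an array, or the probe's own signal where that was higher, and adjusted p-values are limma's, with Benjamini-Hochberg adjustment over all features tested.

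Ncr1, the natural cytotoxicity receptor NKp46, had scaled signals of 0.554, 0.505 and 0.582 in blood after amiodarone and 0.318, 0.191 and 0.376 in blood after vehicle. The groups did not overlap, and again no vehicle pool was well above background. The difference was 0.95 (SE 0.27, adjusted p = 0.0177), at least 1.39-fold against the limit of the vehicle arrays. The adjusted p of Ncr1 was 0.0523 without amiodarone pool 1 and 0.0569 without amiodarone pool 3.

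Klrd1, the CD94 chain that pairs with NKG2 receptors, had scaled signals of 4.95, 4.84 and 4.38 in blood after amiodarone and 2.11, 2.25 and 4.31 in blood after vehicle. The amiodarone pools lay close together, and vehicle pool 3 lay near them while the other vehicle pools were far lower. The difference was 0.79 (SE 0.29, adjusted p = 0.0445), and it passed the threshold only just. Within the first slide, which held pools 1 and 2 of both groups, it was 1.17, and between the pair of pools on the second slide it was 0.024. Leaving out any pool other than vehicle pool 3 took the adjusted p above the threshold: it was 0.111, 0.101 and 0.0831 without amiodarone pools 1, 2 and 3, and 0.125 without either of vehicle pools 1 and 2.

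Klrk1, the activating receptor NKG2D, had scaled signals of 0.607, 0.594 and 0.648 in blood after amiodarone and 0.505, 0.374 and 0.528 in blood after vehicle. The groups did not overlap, but the difference of 0.41 (SE 0.19, adjusted p = 0.0969) did not pass the threshold and was close to the 0.44 of the median feature. One of the vehicle pools was not well above background.

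Among the granule genes, Gzmk, a granzyme with trypsin-like specificity, moved most. Its scaled signals were 37.4, 33.1 and 34.7 in blood after amiodarone and 12.7, 14.0 and 11.3 in blood after vehicle. The amiodarone pools were all far above the vehicle pools, and the difference was 1.47 (SE 0.17, adjusted p = 0.00102), a 2.78-fold change.

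Prf1, which encodes perforin, had scaled signals of 51.3, 43.8 and 50.7 in blood after amiodarone and 18.7, 25.1 and 21.1 in blood after vehicle. Gzma, the other tryptase granzyme, had 43.3, 45.9 and 53.1 in blood after amiodarone and 18.4, 24.6 and 20.5 in blood after vehicle. The groups were well apart for both genes, and the 2 differences were nearly equal in size. Prf1 differed by 1.17 (SE 0.19, adjusted p = 0.00205) and Gzma by 1.17 (SE 0.19, adjusted p = 0.00216).

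Nkg7, a membrane protein of cytotoxic granules, had scaled signals of 39.0, 32.0 and 39.7 in blood after amiodarone and 14.3, 16.6 and 21.0 in blood after vehicle. No vehicle pool reached the lowest amiodarone pool. The difference was 1.1 (SE 0.21, adjusted p = 0.00367), a 2.15-fold change.

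Ctsw, cathepsin W, a cysteine protease found mainly in natural killer and cytotoxic T cells, had scaled signals of 5.75, 4.83 and 6.71 in blood after amiodarone and 3.29, 4.25 and 4.48 in blood after vehicle. The lowest amiodarone pool was just above the highest vehicle pool. The difference of 0.52 (SE 0.21, adjusted p = 0.0587) did not pass the threshold, but its adjusted p was 0.0486 without vehicle pool 3 and 0.0499 without amiodarone pool 2.

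Gzmb, the granzyme that cleaves after aspartate and activates caspases, had scaled signals of 2.15, 2.75 and 3.29 in blood after amiodarone and 2.22, 2.21 and 1.57 in blood after vehicle. It was the only one of the 10 genes whose blood groups overlapped, since amiodarone pool 1 lay below vehicle pools 1 and 2. The difference was 0.45 (SE 0.24, adjusted p = 0.128). Between the pools of the second slide it was 1.07, and within the first slide it was 0.14.

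The 3 probes mapped to Gzmb gave different answers in blood. The granzyme-like protein I probe had scaled signals of 0.629, 0.840 and 0.506 in blood after amiodarone and 1.95, 2.04 and 1.44 in blood after vehicle. Every amiodarone pool was below every vehicle pool on this scale. With each probe taken as its own feature, a setting chosen after the probes were seen to differ, the difference was -1.47 (SE 0.25, adjusted p = 0.00266). The granzyme-like protein III probe had 1.17, 0.954 and 2.46 in blood after amiodarone and 1.04, 1.33 and 0.868 in blood after vehicle, and its difference of 0.40 (SE 0.37, adjusted p = 0.360) did not pass.

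The granzyme-like protein I and III probes lay 132.6 and 294.8 kb from the Gzmb probe on chromosome 15 and are printed above. Related serine protease genes of mast cells and basophils lie in the same stretch of that chromosome. Mcpt8, a basophil protease named here after its value was seen, fell by 1.39 in blood (SE 0.19, adjusted p = 0.00130) with scaling to the 75th percentile, and lay at 0.22 without scaling and at -0.12 with spike-in scaling, neither past the threshold. Of the mast cell and basophil markers, 3 of 6 tested were lower (Kit, Tpsb2 and Mcpt8) and 1 was higher, with a median of -0.86, and their summed scaled signal was 20.1 to 23.7 after amiodarone and 24.0 to 32.9 after vehicle. Their share of all signal ran the other way, at 0.00732% ± 0.000457 after amiodarone and 0.0058% ± 0.00059 after vehicle (SD, n = 3 each), and without scaling 3 of the 6 were higher and none was lower. The defining markers Ms4a2 and Cpa3 were well above background on no blood array. Their part in the level of the granzyme-like protein I probe was not tested. Before scaling, that probe had signals of 55.1, 47.7 and 39.0 after amiodarone and 51.0, 42.5 and 35.9 after vehicle, which overlap, and without scaling its difference was 0.13 (adjusted p = 0.741).

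**Figure D2:**
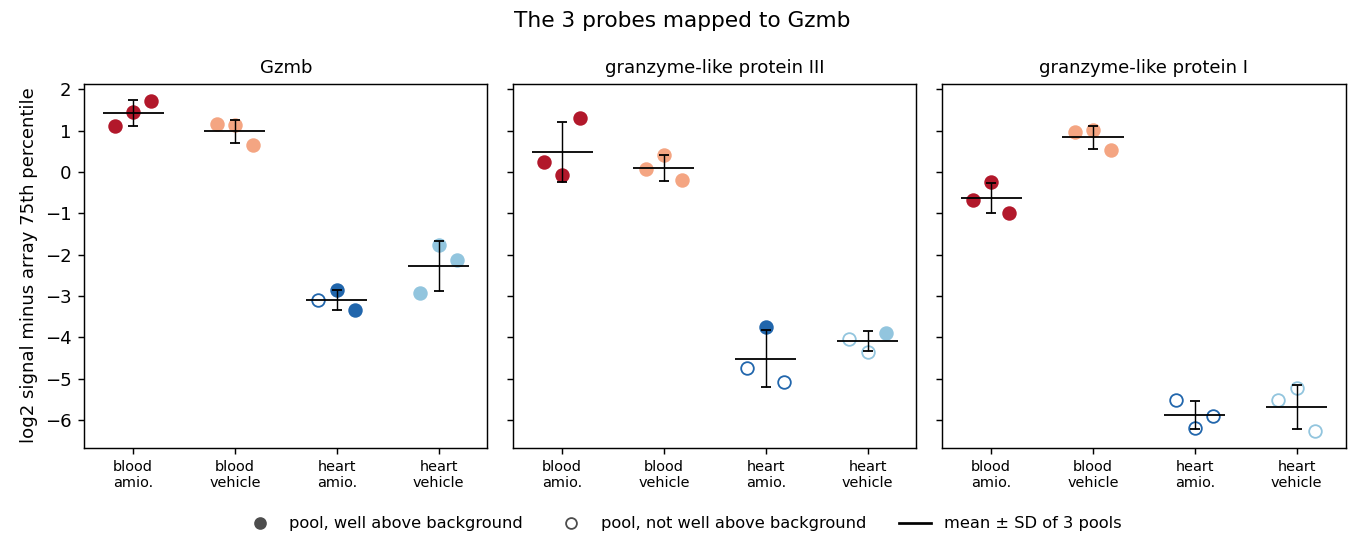
The y axis is the log2 signal minus the array's 75th percentile, and the panels are the 3 probes mapped to Gzmb in each pool of the 4 groups; bars are the mean ± SD of 3 pools and open points were not well above background. On this scale the granzyme-like protein I probe is lower after amiodarone in blood, and it is below background on all 6 heart arrays.

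Scaling decided how much of the blood difference was shown. Without any scaling between arrays, all 10 genes were higher after amiodarone, with differences of 2.01 to 4.37 and a median of 2.63. The median over all features was then 2.04, and 75.1% of all features were called higher and 1.95% lower. Scaling by 1 factor per array adds the same shift to every probe's difference, so it leaves the order of the members' differences as it was.
Before scaling, Prf1 had processed signals of 4490.0, 2489 and 3903 in blood after amiodarone and 489.7, 523.8 and 528.3 in blood after vehicle. Klrb1b had 133, 74.3 and 92.3 after amiodarone and 6.12, 2.90 and 5.80 after vehicle. The amiodarone pools were several times brighter for both genes. Klrk1, Gzmb and Ctsw, which did not pass with scaling, differed by 2.01, 2.05 and 2.13 without it, and all 3 passed. Scaling to the array's 7 spike-in probes gave 1.67 to 4.03 and 10 of 10 called, where 66.2% of all features were higher and 1.93% lower and the median feature lay at 1.70.

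Relative to leukocyte genes, the difference was smaller. When blood arrays were scaled to 9 pan-leukocyte genes, 5 of 10 members were higher, Klrb1b by 2.39, Gzmk by 1.1, Prf1 by 0.80, Gzma by 0.80 and Nkg7 by 0.73, with adjusted p-values of 0.000649 to 0.0121. Under that scaling 19.7% of all features were higher and 32.1% lower, the median feature lay at 0.06 and the median member at 0.65. Ncr1 and Klrd1 lost their calls there, with 0.57 (adjusted p = 0.0925) and 0.41 (adjusted p = 0.224), while Klrk1, Gzmb and Ctsw lay at 0.03, 0.07 and 0.15. The 9 leukocyte genes did not move as one, since Ptprc and Cd52 were lower after amiodarone with scaling to the 75th percentile and the other 7 were higher, while without scaling Ptprc lay at 0.28 and Cd52 at -0.11, neither past the threshold. The normexp background correction added an offset of 50 to every signal. With it only Klrb1b was called, with a difference of 0.48 (adjusted p = 0.0385). Of all features, 1.73% were then called higher and 7.3% lower. The differences of Gzmk, Prf1, Gzma and Nkg7 were 1.30, 1.09, 1.08 and 0.98 with normexp, with adjusted p-values of 0.0526 to 0.122. Such an offset shrinks the log2 differences of dim probes, and Klrb1b had processed signals of 2.90 to 6.12 in blood after vehicle.

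**Figure D3:**
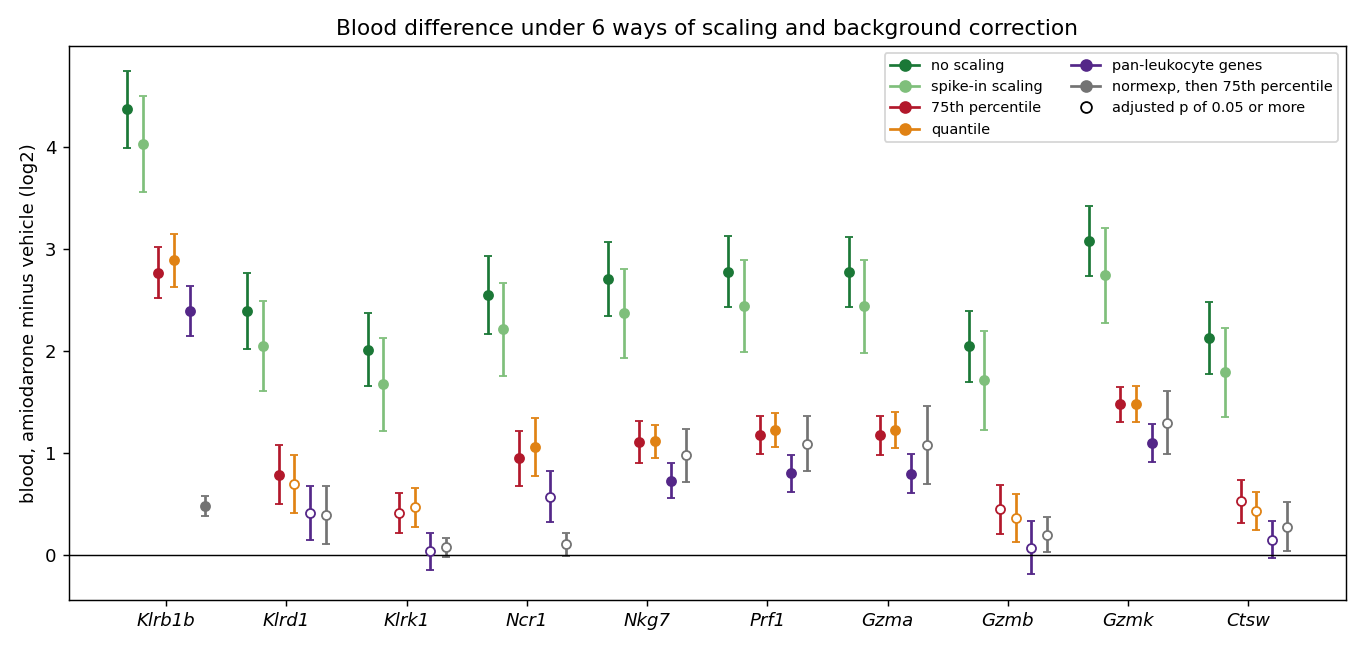
The y axis is the log2 difference between amiodarone and vehicle in blood, with bars of 1 SE, for the 10 genes under 6 settings; open points had an adjusted p of 0.05 or more. All points lie above 0, those without scaling between 2.01 and 4.37, and those scaled to pan-leukocyte genes between 0.03 and 2.39.

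Other blood cell markers moved in the same comparison. Red cell markers were lower in 10 of 11 genes tested (4 of 11 without scaling), with a median of -2.42 and a summed share of signal of 1.40% ± 0.347 after amiodarone and 3.04% ± 0.251 after vehicle (SD, n = 3 each), and Alas2, Hbb and Slc4a1 remained well above background in all pools. Neutrophil markers were higher in 7 of 8, with a median of 2.32 and a summed scaled signal of 257 to 409 after amiodarone and 61.8 to 109.7 after vehicle. T cell markers, which share perforin and granzyme expression with killer cells in part, were higher in 7 of 11 and lower in none, with a median of 0.70 and a summed scaled signal of 433 to 484 after amiodarone and 315 to 381 after vehicle. The members' summed scaled signal was 170 to 195 after amiodarone and 72.8 to 89.6 after vehicle. As a share of all signal, T cell markers made up 0.155% ± 0.0114 after amiodarone and 0.0672% ± 0.00595 after vehicle (SD, n = 3 each). The defining T cell genes gave 0.66 for Cd3e (adjusted p = 0.0117), and 0.27 for Cd3d and 0.37 for Cd3g, which did not pass. B cell markers were higher in 1 of 7 and platelet markers in 5 of 6. The part of these shifts in the levels of the 10 genes, and of the wider list genes below, was not tested.

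The wider killer cell lists gave 61 genes higher and 4 lower of 90 tested in blood, next to 40.2% higher and 27% lower of all features. Some, among them Klri2, Cd244, Prdm1 and Il15, passed the filter only through the amiodarone pools and could hardly be called lower. With no filter more list genes were lower, and so were 18548 of 35856 features. Of the other killer receptors, 12 of 18 tested were higher and none was lower (median 1.21). Klrb1a, a receptor of the same family as Klrb1b, had scaled signals of 6.60, 5.77 and 5.97 in blood after amiodarone and 2.12, 2.56 and 3.04 in blood after vehicle, a difference of 1.26 (adjusted p = 0.00185). Klrc3, an NKG2 chain, differed by 1.71 (adjusted p = 0.00244). Klri2 differed by 1.36 (adjusted p = 0.00127), at least 2.20-fold, since no vehicle pool was well above background. Cd244, an immune receptor of the SLAM family, was called at 1.61 (adjusted p = 0.00306), but no vehicle pool was well above background and no bound above 1 was left. Klrb1c, Klrc2, Klra22, Fcgr3a, Slamf7 and Cd96 did not pass, at 0.29, -0.19, -0.31, 0.28, 0.36 and 1.23. Probes of such closely related receptors may share targets, and their signals are uncertain for that reason.

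Of the adaptors and proximal kinases that carry the receptors' signals, 15 of 16 tested were higher and none was lower (median 0.94). Tyrobp, the DAP12 adaptor of activating receptors, had scaled signals of 314, 245 and 304 in blood after amiodarone and 77.9, 95.4 and 136 in blood after vehicle, with no overlap, and differed by 1.51 (adjusted p = 0.00218). Lcp2, the SLP-76 adaptor, differed by 1.33 (adjusted p = 0.00124), the exchange factor Vav1 by 1.26 (adjusted p = 0.00129) and the kinase Syk by 1.22 (adjusted p = 0.00185). Tyrobp, Syk and Fcer1g are also expressed in neutrophils and monocytes, whose markers moved too, 7 of 8 neutrophil genes being higher, and 5 of 7 monocyte genes higher and 1, C1qb, lower. Lck and Cd247, the T cell kinase and the CD3 zeta chain, were higher by 0.62 (adjusted p = 0.0454) and 0.78 (adjusted p = 0.0270). Of the 6 fits that leave out 1 blood pool, the call of Lck was lost in 5 and that of Cd247 in 2.

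Of the genes for granule contents, processing and release, 13 of 17 tested were higher and 1 was lower (median 0.93). Srgn, the proteoglycan serglycin that packs granzymes and perforin, had scaled signals of 83.2, 60.7 and 83.4 in blood after amiodarone and 24.6, 24.8 and 27.8 in blood after vehicle, a difference of 1.55 (adjusted p = 0.00113). Ctsc, the dipeptidyl peptidase that activates progranzymes, differed by 1.46 (adjusted p = 0.00129). The release proteins Stx11 and Stxbp2 (syntaxin 11 and Munc18-2) differed by 1.79 (adjusted p = 0.00177) and 1.17 (adjusted p = 0.00176). Calr, the chaperone calreticulin that binds perforin, was lower by -1.21 (adjusted p = 0.00191) with scaling to the 75th percentile, but lay at 0.39 without scaling and at 0.059 with spike-in scaling, neither past the threshold. Among other granzymes, Gzmc and Gzmm were higher by 1.61 (adjusted p = 0.0120) and 0.48 (adjusted p = 0.0357). The Gzmm difference was close to the 0.44 of the median feature. Its call was lost in 5 of the 6 fits that leave out 1 blood pool, with adjusted p-values up to 0.102.

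Of the secreted effectors, 2 of 5 tested were higher and 1 was lower (median 0.36). The chemokine Ccl3 had scaled signals of 21.3, 11.3 and 16.9 in blood after amiodarone and 3.41, 2.57 and 4.28 in blood after vehicle, a difference of 2.25 (adjusted p = 0.00123). Ccl5 differed by 1.24 (adjusted p = 0.00202), and Ccl4 and Xcl1 did not pass, at 0.33 and 0.36. Csf2, the cytokine GM-CSF, was lower by -2.41 (adjusted p = 0.000954), and lay at -0.81 (adjusted p = 0.0329) without scaling and at -1.15 (adjusted p = 0.0513) with spike-in scaling.

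Of the cytokine receptors and transcription factors of killer cells, 7 of 13 tested were higher and 1 was lower (median 0.86). Nfil3, a factor required for natural killer cell development in the mouse, differed by 1.63 (adjusted p = 0.00104), and Il2rb, a chain of the interleukin-2 and interleukin-15 receptors, by 1.23 (adjusted p = 0.00155). Prdm1 was called at 1.92 (adjusted p = 0.00138), but no vehicle pool was well above background and its bound was 1.02-fold. Runx3 was lower by -1.20 (adjusted p = 0.00138) with scaling to the 75th percentile, but lay at 0.40 without scaling and at 0.06 with spike-in scaling. Tbx21 and Gata3 did not pass, at 0.72 and 0.34.

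Of the homing receptors, 7 of 13 tested were higher and 1 was lower (median 0.82). The integrin chain Itgb2, also one of the leukocyte genes above, differed by 1.48 (adjusted p = 0.00104), while Cx3cr1, a receptor of patrolling cells, was lower by -0.94 (adjusted p = 0.0328) with scaling to the 75th percentile, but lay at 0.66 without scaling and at 0.32 with spike-in scaling, neither past the threshold. The Cx3cr1 call was also lost in 4 of the 6 fits that leave out 1 blood pool, with adjusted p-values up to 0.107. Of the receptors' ligands and survival cytokines, 5 of 8 were higher and none was lower (median 0.96). Tap2 of the peptide transporter differed by 0.94 (adjusted p = 0.00347), and Il15, the cytokine that sustains natural killer cells, by 1.15 (adjusted p = 0.0122), at least 1.13-fold, with no vehicle pool well above background.

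**Figure D4:**
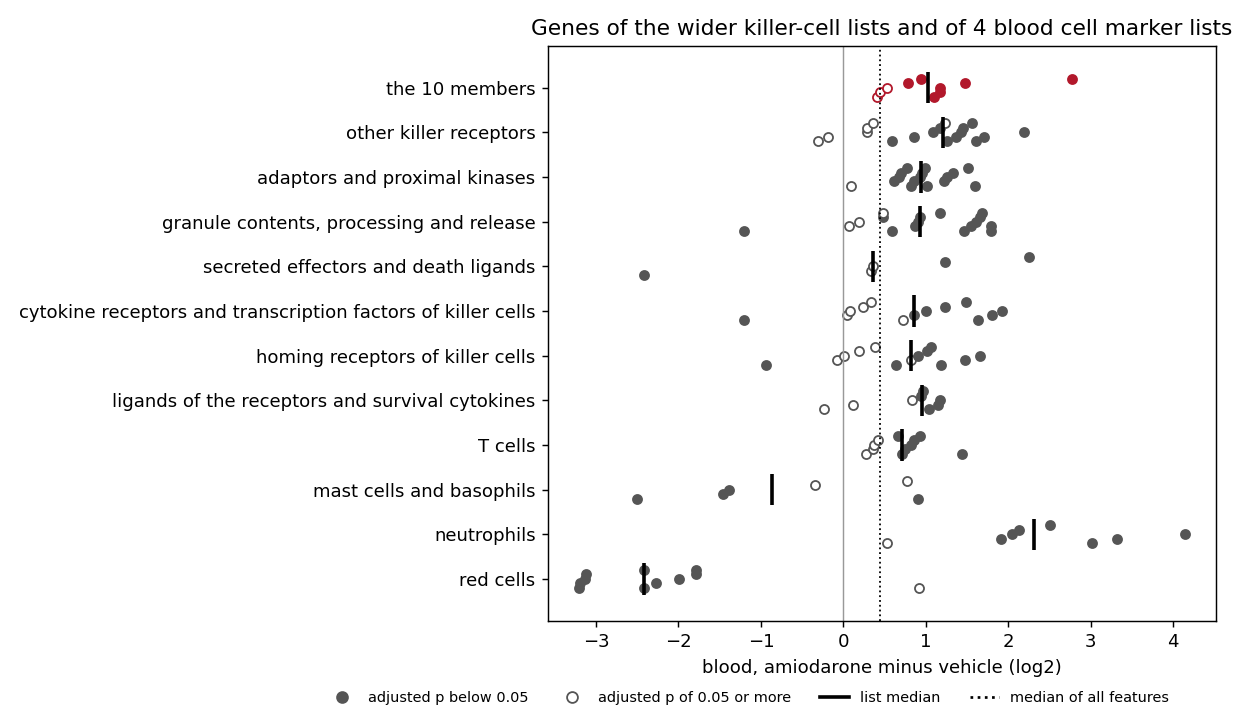
Each point is a gene tested in blood, with the log2 difference between amiodarone and vehicle on the x axis, for the 10 genes, 7 wider lists and 4 marker lists; black bars are list medians and the dotted line is the median of all features, 0.44. The wider lists sit mostly right of that line, as do neutrophil genes, and 10 of the 11 red cell genes sit left of 0.

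In heart, none of the 10 genes differed between amiodarone and vehicle at the threshold, where 8.41% of the 17696 features tested did. Of the 10, 7 passed the filter; Klrb1b, Klrk1 and Ncr1 were well above background on none of the 6 heart arrays and were not tested. Before adjustment, 3 of the 7 passed 0.05 in limma's test, Gzmb, Ctsw and Nkg7, all with amiodarone lower, beside 4430 of all features. Features were called higher in 4.25% and lower in 4.16% of cases. Without scaling (1.28% higher, 2.93% lower) and with normexp (4.33% higher, 3.83% lower) no member was called either, nor in the authors' value table, while array weights called 1. The median of the 7 was -0.26 against 0.02 over all features.

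Gzmb had scaled signals of 0.116, 0.138 and 0.0979 in heart after amiodarone and 0.131, 0.293 and 0.228 in heart after vehicle. Amiodarone pool 2 lay above vehicle pool 1, so the groups overlapped. The difference was -0.82 (SE 0.30, adjusted p = 0.140), and the adjusted p was 0.0448 without vehicle pool 1. Nkg7 had 0.900, 1.14 and 1.07 in heart after amiodarone and 1.24, 1.54 and 1.29 in heart after vehicle, with no overlap, a difference of -0.39 (SE 0.16, adjusted p = 0.186).

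Ctsw had scaled signals of 0.0987, 0.102 and 0.105 in heart after amiodarone and 0.123, 0.178 and 0.128 in heart after vehicle. Its groups did not overlap either, and the difference was -0.47 (SE 0.18, adjusted p = 0.150). Nkg7 and Ctsw were the only 2 of the 7 without overlap, both with amiodarone below vehicle, where 13.7% of all features were so separated. Without scaling no member was separated in heart.

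Prf1 had scaled signals of 0.476, 0.807 and 0.704 in heart after amiodarone and 0.652, 1.08 and 0.655 in heart after vehicle, a difference of -0.26 (SE 0.27, adjusted p = 0.598). Gzmk had 0.380, 0.628 and 0.504 in heart after amiodarone and 0.312, 0.456 and 0.292 in heart after vehicle, a difference of 0.51 (SE 0.24, adjusted p = 0.245). The groups overlapped for both. Klrd1 and Gzma differed by 0.34 (SE 0.22, adjusted p = 0.394) and 0.07 (SE 0.34, adjusted p = 0.916).

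Red cell markers were lower in heart too, in 6 of 9 tested (median -2.12), with a summed scaled signal of 17.8 to 20.9 after amiodarone and 68.2 to 98.7 after vehicle. The neutrophil genes S100a8 and S100a9 were higher by 2.12 and 1.88, and of 6 T cell markers 1, Bcl11b, was lower. The 7 members' summed scaled signal was 2.75 to 3.67 after amiodarone and 2.93 to 4.53 after vehicle. The part of blood held in the heart samples was not tested. Of 62 genes in the wider lists tested in heart, none was higher and 2 were lower, where 4.25% of all features were higher and 4.16% lower. Both of the 2 came from the list of the receptors' ligands and survival cytokines, and 2 of 62 is no more than the share over all features. Pvr, a ligand of Cd226, had scaled signals of 0.474, 0.539 and 0.480 in heart after amiodarone and 0.802, 0.887 and 0.804 in heart after vehicle, and fell by 0.74 (adjusted p = 0.0180). Clec2d, a ligand of Klrb1-family receptors, had 0.0626, 0.0919 and 0.0879 in heart after amiodarone and 0.164, 0.132 and 0.130 in heart after vehicle, and fell by 0.83 (adjusted p = 0.0427), with 1 of 3 amiodarone pools well above background. The call of Clec2d was lost when any single heart pool was left out, with adjusted p-values of 0.0566 to 0.135, and that of Pvr without any 1 vehicle pool or without amiodarone pool 2, with 0.0509 to 0.0746.

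**Figure D5:**
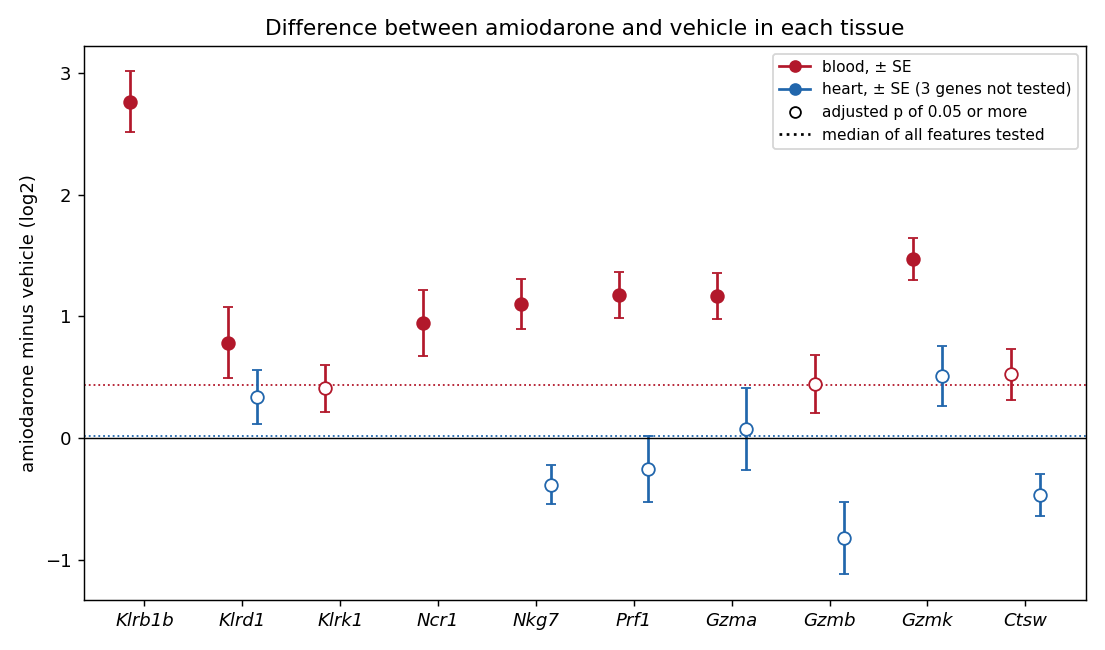
The y axis is the log2 difference between amiodarone and vehicle for each of the 10 genes in blood and in heart, with bars of 1 SE; filled points had an adjusted p below 0.05 and dotted lines mark the median of all features in each tissue. In blood 7 points are filled and lie above 0.44, and in heart none of the 7 tested is filled.

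The difference between the tissues' responses was tested in a fit over all 12 arrays, taken as independent. The labels do not say whether blood and heart pools of the same number came from the same rats. The blood response exceeded the heart response for 6 of the 10 genes and fell below it for none, where 46.4% of 20329 features were called, 21.6% higher and 24.8% lower. Without scaling it was 10 of 10 (62.8% of all features higher, 0.969% lower), and with normexp 2 of 10 (3.06% higher, 6.21% lower). Nkg7 had 1.49 (SE 0.27, adjusted p = 0.00168), the difference between 1.1 in blood and -0.39 in heart, and Prf1 had 1.43 (SE 0.35, adjusted p = 0.00786). Gzmb had 1.27 (SE 0.41, adjusted p = 0.0275) although neither tissue's own difference passed. The mean of the 3 probes mapped to Gzmb, which takes in the granzyme-like protein I and III probes, had 0.28 (adjusted p = 0.461). Ctsw had 0.99 (SE 0.28, adjusted p = 0.0153) and Gzmk had 0.96 (SE 0.32, adjusted p = 0.0276).

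Klrb1b had 2.06 (SE 0.44, adjusted p = 0.00392), but no heart array and no blood array after vehicle was well above background for it. Gzma had 1.1 (SE 0.42, adjusted p = 0.0510), Klrd1 0.45 (adjusted p = 0.360), Ncr1 0.24 (adjusted p = 0.629) and Klrk1 0.20 (adjusted p = 0.746), none past the threshold. The Gzmb call was lost in 5 of the 12 fits that leave out 1 pool, without heart vehicle pool 2 or 3, heart amiodarone pool 3, blood vehicle pool 3 or blood amiodarone pool 3, with adjusted p-values of 0.0559 to 0.0649. The Gzmk call was lost in 4 of 12, without heart vehicle pool 2, heart amiodarone pool 1, blood vehicle pool 3 or blood amiodarone pool 1, with 0.0501 to 0.0650, and Gzma was called without heart vehicle pool 1 (0.0148) or heart amiodarone pool 2 (0.0395).
The granzyme-like protein I probe had -1.27 (SE 0.42, adjusted p = 0.0297) with scaling to the 75th percentile and 0.46 (adjusted p = 0.439) without scaling, and no heart array was well above background for it.

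After amiodarone all 10 genes were higher in blood than in heart, and after vehicle 8 were, since Klrb1b and Ncr1 were then below background in both tissues. After amiodarone the differences ran from 3.50 for Klrd1 to 7.0 for Gzma, with a median of 5.35 against 0.04 over all features, where 80.6% of features differed, 41.5% being higher and 39.1% lower in blood. After vehicle they ran from 3.05 for Klrd1 to 5.90 for Gzma, with a median of 4.19 against -0.17 (both with the values below background counted as read), where 81.1% of features differed, 38.9% being higher and 42.2% lower in blood. Gzma, for example, averaged 47.5 ± 5.08 in blood and 0.376 ± 0.0886 in heart after amiodarone, and 21.2 ± 3.14 in blood and 0.378 ± 0.178 in heart after vehicle (SD, n = 3 each).

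The 3 genes below background in heart gave only bounds. After amiodarone, blood was at least 17.8-fold higher for Klrb1b, 8.21-fold for Klrk1 and 7.28-fold for Ncr1. After vehicle it was at least 6.96-fold higher for Klrk1, well above background in 2 of 3 blood pools, while Klrb1b and Ncr1 were below background in both tissues and have no measured difference. These bounds were smaller before scaling. After amiodarone they were then 10.0-fold for Klrb1b, 4.64-fold for Klrk1 and 4.11-fold for Ncr1, and after vehicle 1.18-fold for Klrk1. Without scaling, the differences after vehicle were 0.49 for Klrd1 (adjusted p = 0.234) and 0.71 for Gzmb (adjusted p = 0.108), which did not pass. The other 8 were called at 0.93 to 3.35, among them Klrb1b and Ncr1, which were below background.

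Over the 12 arrays the 10 genes had Pearson correlations of 0.957 for Klrb1b to 0.998 for Gzma with the mean of the 10, which includes the gene itself. The genes outside the 10 with the profile most like that mean were Pak1, a kinase, C1h16orf54, Dennd1c, Itgb7, an integrin chain, and Insl3, with correlations of 0.998 to 0.999 over the 12 arrays. These correlations rest mostly on the gap between blood and heart that all of these genes share, and are given as a description.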

How the data were processed

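The data are 12 single-colour Agilent arrays, 3 pools per tissue and treatment. The deposited scanner files hold intensity, a processed signal per spot, made by Agilent Feature Extraction 9.5.1.1 by subtracting background and detrending, per the file headers. The deposited value table holds normalized intensity on a linear scale; its medians were 7.28 to 7.81 in blood and 21.3 to 30.0 in heart, its correlation with the scanner's log2 values was 0.993 or higher, and the scaling behind it is not stated. All log2 values were computed from the deposited intensity.

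Outlier spots were left out, and log2 signals were reduced by the array's 75th percentile of non-control spots. Probes were tested if well above background on all 3 arrays of 1 group, with the brightest probe per gene. Tests used limma 3.58.1 in R 4.3.3 (lmFit, eBayes), within each tissue, or over 12 arrays for contrasts between tissues, with Benjamini-Hochberg adjustment and a threshold of 0.05. The tests were checked on simulated arrays. These held no difference in brightness between groups, so the check does not bear on the scaling in blood. Probe names were taken from accessions and symbols in a RefSeq table for GRCr8 where they matched (16327 by accession, 3751 by symbol, 1099 by synonym) and from the files for the other 19835. An exact permutation test of 3 against 3 pools could not give a two-sided p below 0.1 and was not used. Sensitivity alternatives covered scaling, background correction (normexp with an offset of 50), filter, probe choice, slide, pool number, pool left out, array weights and the value table.

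The members and lists were chosen with earlier results of these data known. All 10 members were named, with up to 4 genes of each of the 7 wider lists that passed in blood and up to 2 in heart, by smallest p, plus the 5 genes most like the members' mean; other list genes and Mcpt8 were added after their values were seen. One gene that this rule names is not reported here. Pool numbers were not used in the main tests to pair amiodarone with vehicle pools of a tissue. Same-numbered pools correlated at 0.08, 0.17 and 0.31 in blood and at -0.17, -0.24 and 0.32 in heart. Pools of different numbers correlated at -0.30 to 0.17 in blood and at -0.20 to 0.35 in heart. With so few pairs, these values cannot decide whether same-numbered pools belong together. Each tissue lay on 2 slides, pools 1 and 2 of both groups on one and pool 3 of both on the other.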

Additional observations from a re-analysis of the deposited data

Results flagged for a closer look

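The results below were picked out because the response to amiodarone differed between blood and heart by a test of that difference, given as blood minus heart on the log2 scale with limma's adjusted p. No group had the 4 pools that a check for a single outlying pool needs. Of all features, 21.6% were higher and 24.8% lower by this test.

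Among the members these were Klrb1b at 2.06, Nkg7 at 1.49, Prf1 at 1.43, Gzmb at 1.27, Ctsw at 0.99 and Gzmk at 0.96, with adjusted p-values of 0.00168 to 0.0276. For Klrb1b, no heart array and no blood array after vehicle was well above background. The granzyme-like protein I probe had -1.27 (adjusted p = 0.0297), but 0.46 without scaling, and no heart array was well above background for it.

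Among the named genes of the wider lists, receptors and adaptors gave Cd244 at 2.11, Klrc3 at 1.60, Klrb1a at 0.97, Syk at 1.56, Fyn at 1.49, Tyrobp at 1.29, Fcer1g at 1.20 and Lcp2 at 1.15. Granule genes gave Stx11 at 1.94, Srgn at 1.40, Ctsc at 0.91 and Stxbp2 at 0.87. Secreted effectors gave Ccl3 at 1.67, Ccl5 at 0.94 and Csf2 at -2.58. Cytokine receptors and factors gave Prdm1 at 2.67, Il2rb at 1.49, Nfil3 at 1.42 and Runx3 at -1.13 (0.60 without scaling), homing receptors gave Cd2 at 1.93, Itga1 at 1.41 and Itgb2 at 1.26, and ligands gave Tap1 at 1.80, Clec2d at 0.94 and Tap2 at 0.91. Their adjusted p-values ran from 0.000709 to 0.0492. Csf2 and Stxbp2 were well above background on no heart array, and Cd2 and Cd244 on 1 and 2 of 6. For Prdm1 and Cd244, no blood array after vehicle was well above background, and the blood bound of Prdm1 was 1.02-fold. The call of Tap2 was lost in 10 of the 12 fits that leave out 1 pool, with adjusted p-values up to 0.104. That of Stxbp2 was lost in 8 of the 12, with values up to 0.105.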

How the results depend on the processing

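In blood the members' direction held under every alternative except the mean of all probes mapped to Gzmb. That mean, which takes in the granzyme-like protein I and III probes, was -0.21 (adjusted p = 0.412). Against 7 of 10 higher, 1 was called with normexp, 5 to 8 with 1 pool left out, 5 in the authors' value table and with pan-leukocyte scaling, 6 with the replicate block and with no filter, 8 with slide as a block, 9 with array weights and 10 without scaling, with the array median or with spike-ins. The replicate block ended only the call of Klrd1 (adjusted p = 0.0511) in blood and added that of Gzma (0.0202) in the difference between tissues. Same-numbered pools share no known source other than the slide. Over all features in blood, 6381 were higher in the main test, 274 with normexp, 11906 without scaling and 3126 with pan-leukocyte scaling. Of wider-list genes in blood, against 61 higher, 4 were called with normexp and 40 with pan-leukocyte scaling, and 53 to 59 with 1 pool left out; against 4 lower, 1 was without scaling, 0 with spike-ins, 0 with normexp, 18 of 113 with no filter and 3 to 4 with 1 pool left out. Runx3 was 0.40 without scaling and 0.062 with spike-ins, and Cd7, -0.07 and uncalled in the main test, was 1.53 and 1.19. Likewise without scaling and with spike-ins, Calr was 0.39 and 0.059, Cx3cr1 0.66 and 0.32, and Klrc2, uncalled in the main test, 1.41 and 1.08. Without scaling Klra22 was 1.29, Mcpt8 0.22, Tpsb2 0.14, Ptprc 0.28 (0.49 with the mean of its probes) and the granzyme-like protein I probe, whose scalings were tried after seeing the data, 0.13. In heart, against 0 members higher with 3 of 7 at an unadjusted p under 0.05, array weights gave 1 (Gzmk, adjusted p = 0.0493), and leaving out 1 pool gave 0 higher and 0 to 1 lower. Of wider-list genes in heart, against 0 higher, array weights gave 4, the array median 1 and 1 pool left out 0 to 1; against 2 lower, no scaling, spike-ins, no filter, the replicate block and the first slide alone gave 0, normexp, well above background on every array and slide as a block gave 1, array weights 5 and 1 pool left out 0 to 1. In the difference between tissues, against 6 of 10 members higher, 10 were without scaling, 2 with normexp and 4 to 7 with 1 pool left out; Runx3 was 0.60 without scaling and 0.038 with spike-ins, and the granzyme-like protein I probe 0.46 without scaling. Of blood against heart, 10 of 10 were called higher in both treatments with 1 pool left out, Klrb1b and Ncr1 after vehicle being below background in both tissues, 8 of 10 after vehicle without scaling, and 5 of 5 with well above background on every array. Causes were not tested. The number of arrays and signal over background limit Klrb1b, Klrk1 and Ncr1 to bounds.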
